A study of Mus musculus with 16 samples.

Results

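Livers of C57BL/6 mice, an inbred laboratory strain, were compared 4 h after 1 oral gavage of a slurry made from fast food or from standard chow, in animals that drank control water. The comparison holds 8 of the 16 libraries of the series, 4 per meal. Its libraries were picked by their labels for meal and water, but earlier results of these data were known when it was chosen. The comparison covers 13180 expressed genes of 25006 in the deposited count table. The other 8 libraries come from mice of the same strain that had antibiotic water before the same slurries, 4 per meal, and entered here to estimate the spread and as a second set of animals for the same meal contrast. No genotype, sex or age was given for any group, the content of the slurries was not described, and each mouse had a single meal, so the contrast is one of 2 meals and not of a meal with none. Whether the replicate numbers stand for separate mice is not stated, so the p-values speak to the spread among these libraries, which may in part be technical.

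The liver is the first organ to receive absorbed nutrients through the portal vein. After a meal, insulin and the arriving sugars, amino acids and fats change the transcription of genes for glucose storage, fat synthesis, amino acid breakdown and urea formation, while bile acids return from the gut and feed back on their own synthesis. Hepatocytes also take up and detoxify plant compounds, drugs and microbial products: cytochromes P450 and esterases modify them, transferases couple them to glutathione, glucuronic acid or amino acids, and transporters carry them across the cell membrane. Meal times also set the phase of the liver clock, whose Period and Cryptochrome repressors cycle over the day.

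The libraries were not equal between the meals. Total counts were 8954378, 14081870, 18334016 and 18725630 in the 4 chow libraries and 18102482 to 18882589 in the 4 fast food libraries (exact two-sided permutation test, p = 0.286). Reads assigned to 4 features that carry ribosomal RNA-like sequence (Lars2, Mir6236, Gm20594 and Mir6240) made up 8.42, 2.45, 0.228 and 0.12% of the chow libraries and 0.162 to 0.338% of the fast food libraries (exact p = 0.314; 4 against 4 cannot go below 0.0286). So chow libraries 1 and 2 were both shallow and rich in these reads, and no fast food library was. The liver label fitted the markers: the summed level of 8 hepatocyte genes was 106000 to 143000 CPM (counts of a gene per 1000000 counts of its library, scaled with TMM factors) after chow and 108000 to 120000 CPM after fast food. Of 10 exocrine pancreas markers and 7 striated muscle markers, 4 each were at 0 in all 8 libraries. The 8 neutrophil markers summed to 6.2 to 117 CPM after chow and 6.26 to 12.2 CPM after fast food, with the high value in chow library 2, and the 12 Kupffer cell and macrophage markers to 340 to 934 CPM, highest in chow library 3, and 398 to 542 CPM. The 7 adipocyte markers separated the meals, at 94.9 to 147 CPM after chow and 217 to 413 CPM after fast food. Most of that sum was Car3, which hepatocytes also express, at 86.9 to 138 CPM and 208 to 401 CPM (log2 fold change 1.55, adjusted p = 0.407). Lep and Retn were at 0 in all 8 libraries, and Adipoq had at most 4 counts in any. In whole liver, fewer cells of a type and less RNA per cell cannot be told apart.

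In edgeR's quasi-likelihood test, 76 genes (0.577% of those tested) passed a Benjamini-Hochberg adjusted p of 0.05, which is the rule for calling a gene here. Of these, 32 (0.243%) were higher and 44 (0.334%) lower after fast food, and 36 changed at least 2-fold, 11 upward and 25 downward. The median log2 fold change of all genes tested was -0.02, which TMM scaling centres near 0. Because the 76 genes were picked by p from these same values, little overlap between the meals follows from the choice. In 75 of the 76 genes the 4 fast food values lay entirely above or entirely below the 4 chow values, against 10.3% of all genes tested. The exception was Atp6v0d2, a subunit of the proton-pumping vacuolar ATPase, whose lowest fast food value of 3.77 CPM fell just below the highest chow value of 3.78 CPM. All 76 were protein-coding genes. An unadjusted p under 0.05 was reached by 1515 genes. A positive log2 fold change was found in 6070 of the 13180 genes. That count and the shares called are the background for the gene lists below. The lists were drawn up with earlier results of these data known, so their counts are descriptions. The count and its balance depended on the fit: 365 genes (206 higher, 159 lower) were called when the model saw the 8 control-water libraries alone, 75 of the 76 among them, and 299 (166 higher, 133 lower) by DESeq2, with all 76 among them. The gene missing from the fit to those 8 libraries was Csad (adjusted p = 0.0579).

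**Figure D1:**
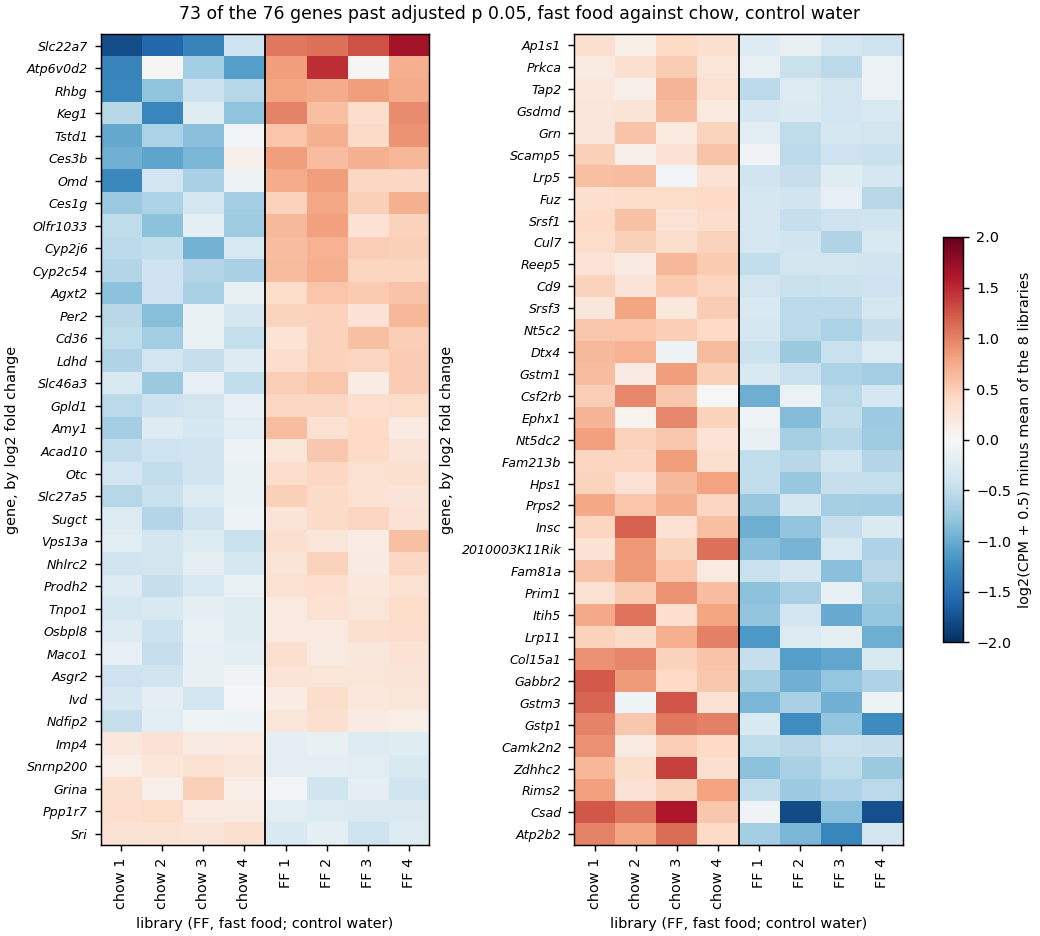
Each row is 1 of 73 of the 76 genes called in edgeR's test and each column 1 library (4 chow, 4 fast food, control water); colour gives log2(CPM + 0.5) minus the gene's mean over the 8 libraries, with genes ordered from the largest rise to the largest fall. The 2 meals separate in every row but that of Atp6v0d2, and the deepest colours belong to Slc22a7 and Csad.

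The number of genes called moved with each library. It was 12, 25, 19 and 42 without chow library 1, 2, 3 or 4, and 17, 11, 20 and 19 without fast food library 1, 2, 3 or 4. The genes that stayed called in every such fit were 8: Cyp2j6, Agxt2, Nhlrc2, Nt5c2, Gstm1, Prps2, Itih5 and Gabbr2. Where an adjusted p without 1 library is given below, it is the highest of the 8 fits. Of those genes, Ldhd was called in 7 of the 8 fits, Ephx1, Otc, Per2 and Atp2b2 in 3, and Slc27a5 in 1. Cyp2c54, Rhbg, Keg1, Ces1g, Cd36, Srsf1 and Nt5dc2 were called in 0. So were many other genes named below, among them Srsf3, Snrnp200, Fam213b, Lrp11, Zdhhc2, Camk2n2, Cul7, Grn, Tap2, Olfr1033 and Slc46a3. Of the 76 genes, 68 lost their call in at least 1 such fit. Low-share libraries, with a ribosomal RNA-like share under 1%, were chow libraries 3 and 4 and the 4 fast food libraries. Chow libraries 1 and 3 of antibiotic water entered that fit for the spread. In it 55 of the 76 were called, and the log2 fold changes of the 76 were 0.662 to 1.24 times those from all libraries (median 0.918). With the ribosomal RNA-like share as a covariate, 20 of the 76 were called. Some log2 fold changes stayed near their size, for example 2.59 for Slc22a7 (2.85 without the covariate), -2.09 for Csad (-2.11) and -1.66 for Gstp1 (-1.76). Others shrank further, as for Lrp5 at -0.57 (-0.75) and Slc46a3 at 0.69 (0.86), and some grew, as for Reep5 at -0.93 (-0.88).

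**Figure D2:**
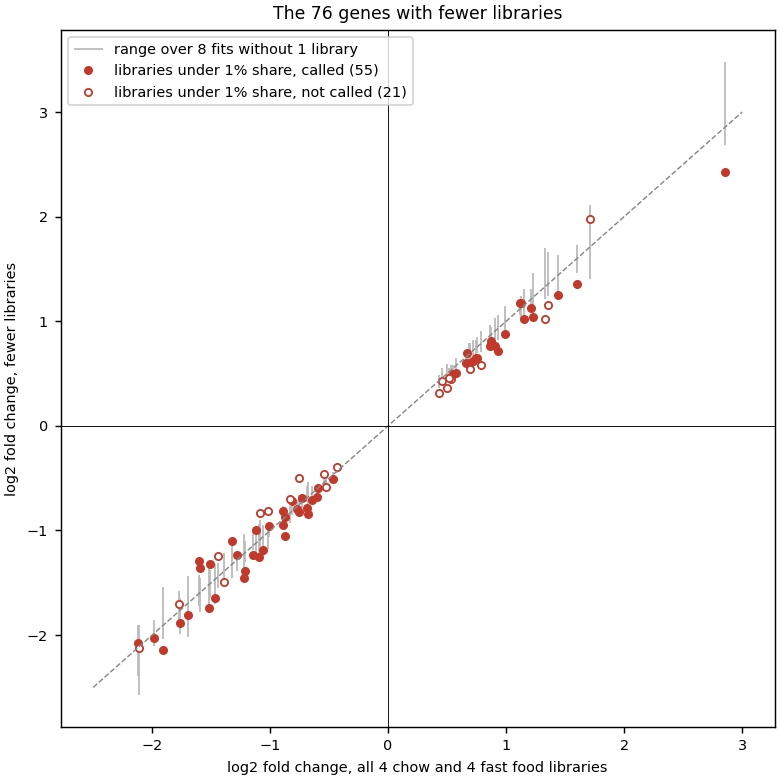
The x axis gives the log2 fold change of each of the 76 genes (fast food against chow, control water) from all libraries, and the y axis the same from fewer: points compare the 6 control-water libraries with a ribosomal RNA-like share under 1% (filled, 55 genes called; open, 21 not called), and grey lines span the 8 fits without 1 library. The fit for the points also held chow libraries 1 and 3 of antibiotic water, which entered its estimate of the spread. Points and lines lie close to the dashed line of equality. Their side of 0 largely follows from the choice of genes by adjusted p in these same libraries.

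Glutathione transferases, which couple glutathione to reactive compounds, held 3 of the genes that fell. Gstp1 stood at 789, 571, 819 and 794 CPM in the chow libraries and at 318, 167, 228 and 165 CPM in the fast food libraries. The groups were far apart, and chow library 2 was the low one of its group. Gstp1 fell by 1.76 on the log2 scale (SE 0.29, adjusted p = 0.0161). Gstm1 stood at 453, 331, 531 and 410 CPM after chow and at 236, 218, 191 and 183 CPM after fast food, again without overlap, with a log2 fold change of -1.06 (SE 0.13, adjusted p = 0.00179). Gstm3, a low transcript, stood at 5.26, 1.92, 5.60 and 2.62 CPM after chow and at 0.856, 1.13, 0.816 and 1.88 CPM after fast food, where the highest fast food library lay just under the lowest chow library, with a log2 fold change of -1.70 (SE 0.36, adjusted p = 0.0409). Gstm1 kept its call without any 1 library. Gstp1 lost it in 5 of the 8 such fits, with a highest adjusted p of 0.0775 without fast food library 2, and Gstm3 also in 5, up to 0.145 without fast food library 3.

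The fall was not a property of the family as a whole. Of 21 glutathione transferases tested, 3 fell, beside 0.334% of all genes, and none rose. Of the 21, 11 had negative and 10 positive fold changes, and the median was -0.01, beside -0.02 for all genes. Gstm1 and Gstm3 lie in a cluster on chromosome 3 (Gstm1 at 108012255 to 108017973 and Gstm3 at 107963696 to 107969283, GRCm38, minus strand). Their neighbours in that cluster had log2 fold changes of -0.75 (Gstm5), -0.63 (Gstm4), 0.09 (Gstm7), 0.38 (Gstm6) and 0.44 (Gstm2), none of which passed the test. On chromosome 19, Gstp1 (4035407 to 4037985, minus strand) is followed by Gstp2 and Gstp3, at -1.50 and -0.57, which did not pass either. The estimate for Gstp2 was imprecise (SE 0.76), at means of only 0.641 CPM after chow and 0.222 CPM after fast food. Reads of such near-identical copies may have been divided between them, since the treatment of reads with several matches was not given.

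The promoters of the 3 transferases that fell together are shown because NRF2 and AP-1 factors are textbook regulators of this family. The stretches are from RefSeq's promoter table (GRCm38.p6, minus strand, written 5′ to 3′ in the direction of transcription), begin 250 bases before RefSeq's start and stop at that start or 28 bases past GENCODE's outermost start where that lies further out. They cover chr19:4037958-4038162 for Gstp1, chr3:108017974-108018223 for Gstm1 and chr3:107969256-107969424 for Gstm3. Capitals mark a match to the AP-1 letters TGANTCA, the antioxidant response element core TGACNNNGC or the E-box CACGTG, searched on both strands.
Gstp1: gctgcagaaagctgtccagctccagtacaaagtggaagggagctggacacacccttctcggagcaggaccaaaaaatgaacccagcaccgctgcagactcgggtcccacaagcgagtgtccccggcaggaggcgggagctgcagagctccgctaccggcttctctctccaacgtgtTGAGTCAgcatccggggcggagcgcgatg
Gstm1: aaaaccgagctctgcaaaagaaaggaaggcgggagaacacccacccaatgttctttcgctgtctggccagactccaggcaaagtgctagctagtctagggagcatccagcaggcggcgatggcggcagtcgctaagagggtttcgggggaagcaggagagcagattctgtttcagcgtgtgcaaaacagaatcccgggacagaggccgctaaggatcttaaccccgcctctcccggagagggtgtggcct
Gstm3: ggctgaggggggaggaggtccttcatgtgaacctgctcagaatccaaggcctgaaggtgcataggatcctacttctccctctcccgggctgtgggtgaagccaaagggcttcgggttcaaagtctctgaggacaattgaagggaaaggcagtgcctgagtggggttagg
Gstp1 held 1 AP-1 match, 67 bases before RefSeq's start, and Gstm1 and Gstm3 held no match to any of the 3 motifs in their 250 bases. The Gstp1 match reads on as TGAGTCAgc, with G where the antioxidant core as searched has C. Forms of that core with G there were not searched, so an antioxidant element at this place in Gstp1 was not tested.

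Over the 55 called genes with such a window, a match says little by itself. The 250 bases before the start held the AP-1 letters in 7.8% of 27025 genes, and in 0 of 23 genes that rose and 3 of 32 that fell (Gstp1, Sri and 2010003K11Rik). The antioxidant core was present in 11.5% of all genes, in 5 of 23 that rose and in 5 of 32 that fell. The E-box was present in 6.9% of all genes, in 4 of 23 that rose and in 2 of 32 that fell. Among the genes that rose, Cyp2j6 held an E-box 38 bases before its start (chr4:96553652-96553901, minus strand).
Cyp2j6: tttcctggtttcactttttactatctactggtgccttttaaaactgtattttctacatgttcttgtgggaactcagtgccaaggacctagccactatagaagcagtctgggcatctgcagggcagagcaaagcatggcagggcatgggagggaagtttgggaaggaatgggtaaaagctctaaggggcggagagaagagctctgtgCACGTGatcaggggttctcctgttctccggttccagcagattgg

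Among genes known as NRF2 targets outside that family, Ephx1 fell. Ephx1, the microsomal epoxide hydrolase, stood at 585, 383, 711 and 506 CPM after chow and at 344, 201, 261 and 219 CPM after fast food. The lowest chow library, number 2, lay above the highest fast food library, and the log2 fold change was -1.09 (SE 0.20, adjusted p = 0.0216; 0.0929 without fast food library 2). Of 24 such genes, Ephx1 fell and Ces1g rose, 17 had negative fold changes and the median was -0.21. The genes of next lowest p were Tkt of the pentose phosphate pathway, at -0.51 (adjusted p = 0.0509), and Cbr1, a carbonyl reductase, at -0.74 (0.0888). Nqo1, the classic NRF2 target quinone reductase, was at 9.98, 9.68, 10.5 and 12.3 CPM after chow and at 8.61, 7.88, 7.54 and 6.60 CPM after fast food. Its groups did not overlap, but its log2 fold change of -0.48 did not pass (adjusted p = 0.182), nor did the -0.32 of Gclc, the limiting enzyme of glutathione synthesis (adjusted p = 0.452).

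Csad, the decarboxylase that makes the taurine precursor hypotaurine, had the second largest fall of all called genes. It stood at 371, 330.0, 480.1 and 228 CPM after chow and at 149, 45.1, 86.7 and 45.8 CPM after fast food. Both groups were spread widely without touching, and the log2 fold change was -2.11 (SE 0.36, adjusted p = 0.0216). Csad was not called among the low-share libraries, where its log2 fold change was -2.12 (adjusted p = 0.208), and it kept its call in 2 of the 8 fits without 1 library. Nor was it called in the edgeR fit to the 8 control-water libraries alone (adjusted p = 0.0579). Tstd1, a thiosulfate sulfurtransferase, rose by 1.36 (log2; adjusted p = 0.0354), from 1.93 to 4.24 CPM after chow to 5.91 to 8.74 CPM after fast food, and shares 23.1% of its exonic bases with Usf1 on the same strand. The other 17 taurine and sulfur amino acid genes of 19 tested did not pass, and the list's median was 0.07.

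Slc22a7 had the largest change of any called gene. It encodes OAT2, a carrier of organic anions on the blood side of the hepatocyte. Its level was 0.537, 0.687, 0.892 and 2.14 CPM after chow and 6.85, 7.04, 8.05 and 10.6 CPM after fast food. Every fast food library lay above every chow library, of which number 4 was the highest, and the log2 fold change was 2.85 (SE 0.46, adjusted p = 0.0132). Without chow library 1 the adjusted p was 0.063, and the call held in 6 of the 8 such fits. None of the other 16 uptake transporters tested passed, and the median of the list was 0.17, with 13 of 17 positive.

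Enzymes of the first and second phases of detoxification supplied several other rises. Cyp2j6, a cytochrome P450 of a subfamily that oxidises arachidonic acid, stood at 45.7, 46.4, 34.1 and 52.7 CPM after chow and at 101, 106, 92.3 and 91.9 CPM after fast food. The step was clear and even, with a log2 fold change of 1.13 (SE 0.14, adjusted p = 0.0018), and it held without any 1 library. Cyp2c54, of a subfamily with epoxygenase activity, stood at 135, 151, 134 and 129 CPM after chow and at 314, 334, 273 and 273 CPM after fast food, a log2 fold change of 1.12 (SE 0.24, adjusted p = 0.0496) that lost its call in each of the 8 fits without 1 library, up to 0.157 without chow library 1. Its neighbour in the family, Cyp2c50, was at 304, 306, 287 and 290 CPM after chow and at 621, 621, 566 and 593 CPM after fast food, but did not pass (1.02, adjusted p = 0.0818). Of 13 Cyp2c genes, 1 rose, 11 were positive, and the median was 0.23.

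Carboxylesterases, which cleave ester drugs and acylglycerols, were also among the rises. Ces3b stood at 128, 120, 132 and 269 CPM after chow, where library 4 was alone at the top, and at 443, 382, 407 and 396 CPM after fast food (log2 fold change 1.33, SE 0.25, adjusted p = 0.0259). Ces3b was not called among the low-share libraries (1.02, adjusted p = 0.17). Ces1g stood at 82.3, 88.7, 108 and 84.6 CPM after chow and at 190, 237, 193 and 225 CPM after fast food (1.21, SE 0.26, adjusted p = 0.0496). Ces1g was called in 0 of the 8 fits without 1 library (0.167 without chow library 1). Of 14 esterases tested, 2 rose, beside 0.243% of all genes, and 13 had positive fold changes, with a median of 0.33.

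Keg1, a glycine N-acyltransferase-like protein, stood at 23.3, 13.5, 29.0 and 19.5 CPM after chow and at 68.7, 52.5, 44.1 and 66.8 CPM after fast food, without overlap (1.44, SE 0.29, adjusted p = 0.0409). Keg1 was called in 0 of the 8 fits without 1 library (0.126 without fast food library 4). It was the called gene of 24 conjugation enzymes, 18 of them positive with a median of 0.33. The glycosyltransferase Ugt3a1 (0.94, adjusted p = 0.0791) and the sulfotransferase Sult1d1 (1.01, 0.0901) followed without passing. None of 19 genes of the xenobiotic receptors CAR, PXR and AHR passed, 14 were positive and the median was 0.31. Lowest in p were Cyp2e1 at 0.69 (adjusted p = 0.0878), Cyp2a5 at 1.22 (0.0998) and Nr1i3, which encodes CAR, at 0.70 (0.143), while the CAR and PXR targets Cyp2b10 and Cyp3a11 were at 0.34 and -0.12. Cyp2b9, named after its values were seen, was at 3.33 (0.359), with 3.89 and 4.67 CPM in fast food libraries 2 and 4 and at most 0.51 CPM in the other 6.

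**Figure D3:**
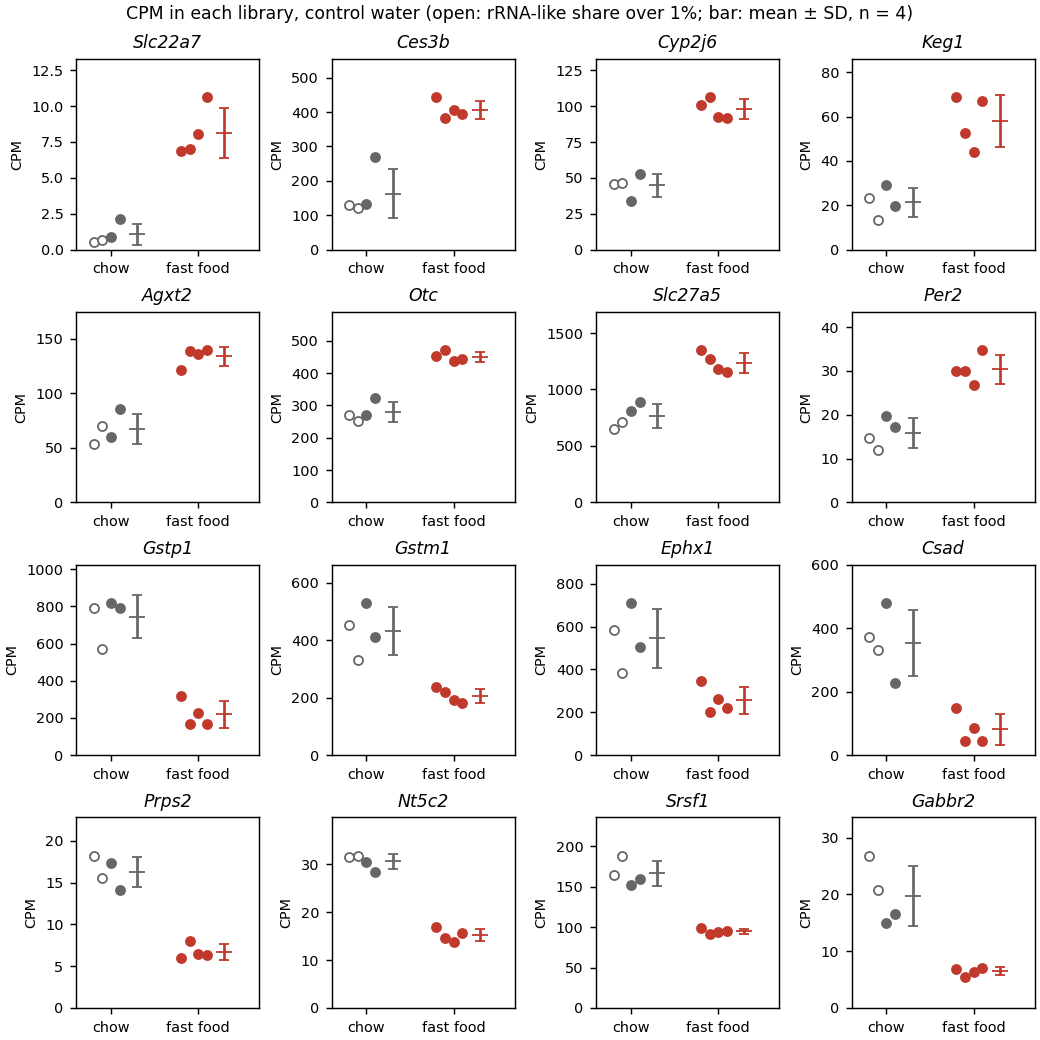
CPM of 16 called genes in each control-water library (y axis from 0); grey, chow; red, fast food; open circles, libraries with a ribosomal RNA-like share over 1%; bars, mean ± SD of 4. In each panel the 2 meals do not overlap, with Slc22a7 near 1 CPM after chow and above 6 CPM after fast food, and Csad at 228 CPM or more after chow and 149 CPM or less after fast food.

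Enzymes of amino acid breakdown rose as 4 of the 43 tested, beside 0.243% of all genes, and none fell. Agxt2, a mitochondrial aminotransferase that removes glyoxylate and dimethylarginine, stood at 53.2, 70.3, 59.9 and 85.2 CPM after chow and at 121, 139, 136 and 140 CPM after fast food. It rose by 0.99 (SE 0.14, adjusted p = 0.00322) and kept its call without any 1 library. Prodh2, the hydroxyproline dehydrogenase, rose by 0.57 (adjusted p = 0.0181) and Ivd, of leucine breakdown, by 0.46 (0.0496). In the list 33 of 43 genes were positive, beside 6070 of all 13180 genes, with a median of 0.23.

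Otc, the mitochondrial enzyme that forms citrulline in the urea cycle, stood at 270, 252, 269 and 323 CPM after chow and at 453, 472, 436 and 442 CPM after fast food. It rose by 0.69 (SE 0.12, adjusted p = 0.0178; 0.0775 without fast food library 2). Rhbg, an ammonia channel of pericentral hepatocytes, stood at 2.68, 3.98, 5.30 and 4.81 CPM after chow and at 13.1, 12.7, 13.5 and 12.7 CPM after fast food, a tight upper group (1.60, SE 0.33, adjusted p = 0.0409). Rhbg was called in 0 of the 8 fits without 1 library (0.136 without chow library 1). The other 10 of 12 genes of the urea cycle and ammonia handling did not pass, including Ass1 at 0.32 and Nags at 0.36, and the list's median was 0.16. Rhbg was also the called member of 21 pericentral zonation genes, of which 17 were positive with a median of 0.34, Slc1a2 and Cyp2e1 being next in p at 0.52 and 0.69 (adjusted p = 0.0811 and 0.0878). None of 19 periportal genes passed, and their median was 0.04.

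A list of 19 mitochondrial enzymes of organic and amino acids was drawn up after the called genes had been seen, so its count describes these genes and tests nothing. The counts of the lists above are descriptions too, since earlier results of these data were known when those lists were written. Of its members 4 rose, among them Ivd. Ldhd, which oxidises D-lactate, stood at 35.4, 41.2, 38.7 and 44.3 CPM after chow and at 68.5, 74.5, 72.5 and 76.5 CPM after fast food (0.87, SE 0.14, adjusted p = 0.01; 0.0529 without chow library 1). Ldhd shares 42.2% of its exonic bases with Znrf1 on the other strand. Acad10, an acyl-CoA dehydrogenase family member, rose by 0.72 (adjusted p = 0.0184) and Sugct, which makes glutaryl-CoA, by 0.68 (0.0321).

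In the bile acid and lipid lists only Slc27a5 and Cd36 passed the test, and some of the estimates that did not pass were large and imprecise. Slc27a5, which activates returning bile acids for conjugation, rose by 0.69 (SE 0.13, adjusted p = 0.0271; 0.104 without chow library 1), from 651 to 888 CPM after chow to 1154 CPM and more in each fast food library. It was the called gene of 18 in bile acid synthesis, where 10 were positive and the median was 0.15. Cyp7a1, the rate-limiting enzyme of that pathway, stood at 187, 43.8, 358 and 28.6 CPM after chow and at 585, 534, 223 and 118 CPM after fast food. Its libraries differed more than 4-fold within each meal and overlapped between them, so the log2 fold change of 1.24 had an SE of 1.01 and an adjusted p of 0.713. Cyp8b1 was at -0.02, Akr1c6 at 0.86 (adjusted p = 0.0856) and Cyp7b1 at 1.00 (0.124). None of 13 genes of bile acid export and FXR feedback passed.

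Cd36, a receptor that takes up long-chain fatty acids, stood at 64.3, 56.7, 83.4 and 65.6 CPM after chow and at 112, 126, 140.0 and 130 CPM after fast food. It rose by 0.91 (SE 0.20, adjusted p = 0.0488) and was called in 0 of the 8 fits without 1 library (0.157 without chow library 1). Adipocytes express Cd36 too: the adipocyte marker sum, mostly Car3, was also higher after fast food. Fabp4, another marker on that list, overlapped between the meals, at 0.24 (adjusted p = 0.796). Plin1, also on it, had at most 3 counts in any control-water library. The part of adipocytes in the rise of Cd36 was not tested. Cd36 was the called gene of 38 in fatty acid oxidation and ketone body formation, whose median was -0.07. In the same list Acot2, an acyl-CoA thioesterase, was at -1.11 (adjusted p = 0.136), Pdk4, which restrains pyruvate oxidation in fasting, at -1.34 (0.176) and Cpt1a, the gate of mitochondrial fatty acid entry, at -0.22 (0.757). None of 23 genes of fatty acid synthesis passed: Elovl6, a fatty acid elongase, was at -0.98 (adjusted p = 0.0857), Elovl3 at -1.44 (0.418), Fasn at -0.38, Scd1 at -0.68 and Srebf1 at 0.01. Of 24 genes of cholesterol synthesis and uptake none passed and 21 were positive, with a median of 0.30, for example Insig1 at 0.95 (0.338), Stard4 at 0.71 (0.357) and Lss at 0.69 (0.431). Of 23 lipoprotein and lipid droplet genes none passed, with Plin2 at -0.86 (0.216).

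Genes of glucose handling and the fasting response did not pass, in either list of 22 and 25 genes. On the fasting side, G6pc was at -0.56, Igfbp1 at -1.53, Fgf21 at -1.08 (adjusted p = 0.409), Irs2 at -1.04 and Cdkn1a at -2.82 (0.293), while Pck1 was at 0.10 and Ppargc1a at 0.10. The estimate for Igfbp1 had an SE of 0.79.

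Per2, a repressor of the clock loop, stood at 14.6, 11.9, 19.8 and 17.2 CPM after chow and at 30.0, 30.0, 26.8 and 34.8 CPM after fast food. It rose by 0.93 (SE 0.17, adjusted p = 0.0182; 0.078 without chow library 1). Of 20 clock genes Per2 was the one called, 15 were positive and the median was 0.40. Tef, an activator of clock-controlled genes, was at 0.68 (adjusted p = 0.0888), Per1 was at 0.24, and Arntl, the activator of the core loop, was at -1.08 (0.358). The hour of gavage was not given.

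Prps2, Nt5c2 and Nt5dc2 fell. Prps2, which makes the ribose phosphate that starts purine and pyrimidine synthesis, stood at 18.2, 15.5, 17.3 and 14.2 CPM after chow and at 5.94, 8.03, 6.42 and 6.35 CPM after fast food (-1.28, SE 0.15, adjusted p = 0.00179), and kept its call without any 1 library. Nt5c2, a cytosolic nucleotidase for inosine and guanosine monophosphate, stood at 31.6, 31.9, 30.6 and 28.5 CPM after chow and at 16.8, 14.7, 13.8 and 15.6 CPM after fast food (-1.01, SE 0.15, adjusted p = 0.0059), and kept it too. Nt5dc2, a protein with a nucleotidase-like domain, fell by 1.12 on the log2 scale (0.0438). Nt5dc2 was called in 0 of the 8 fits without 1 library (0.153 without fast food library 2). Of 25 purine and nucleotide genes in the list, Nt5c2 and Nt5dc2 fell and 23 did not pass. The list held 12 positive and 13 negative fold changes with a median of -0.03, Upp2, a uridine phosphorylase, being at 1.78 (0.109). Prps2 was not on that list.

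Splicing factors were likewise listed only after Srsf1 had been seen among the falls. Srsf1 stood at 165, 188, 152 and 160.0 CPM after chow and at 99.3, 91.2, 93.9 and 94.9 CPM after fast food (-0.81, SE 0.16, adjusted p = 0.0269). Srsf1 was called in 0 of the 8 fits without 1 library (0.101 without fast food library 2). Srsf3, of the same family, fell by 0.89 on the log2 scale (adjusted p = 0.0496) and Snrnp200, a spliceosome helicase, fell by 0.47 (0.0369). Of the 20 factors 13 were negative and the median was -0.18.

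Gabbr2, a subunit of the GABA-B receptor, stood at 26.8, 20.7, 14.97 and 16.6 CPM after chow and at 6.90, 5.51, 6.37 and 7.11 CPM after fast food (-1.60, SE 0.21, adjusted p = 0.00214). Itih5, an inter-alpha-trypsin inhibitor heavy chain of the matrix, stood at 41.3, 52.4, 30.7 and 42.3 CPM after chow and at 13.9, 18.6, 11.9 and 14.1 CPM after fast food (-1.51, SE 0.22, adjusted p = 0.0059). Both kept their calls without any 1 library. The largest fall was in Atp2b2, a plasma membrane calcium pump, from 2.46 to 4.36 CPM after chow to 0.408 to 1.22 CPM after fast food (-2.12, SE 0.37, adjusted p = 0.0181; 0.0833 without fast food library 2). Rims2, of vesicle release, fell by 1.98 from 1.10 to 1.83 CPM to 0.295 to 0.428 CPM, levels at which each library holds few reads. The basement membrane collagen Col15a1 fell by 1.59 and the small matrix proteoglycan Omd rose by 1.23, and both were on the list of 14 stellate cell and fibroblast markers, whose summed level was 633 to 738 CPM after chow and 700 to 824 CPM after fast food. The tetraspanin Cd9, on the cholangiocyte list, fell by 0.89 from 10.8 to 13.1 CPM to 6.45 to 6.79 CPM, while that list summed to 49.4 to 64.2 CPM and 40.6 to 54.3 CPM. The part of cell composition in these changes was not tested.

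Further falls at least 2-fold, by log2 fold change, included Zdhhc2, a palmitoyltransferase (-1.91), the kinase inhibitor Camk2n2 (-1.78), Lrp11 (-1.52), the DNA primase subunit Prim1 (-1.46), Fam81a (-1.44), 2010003K11Rik (-1.39), the spindle orientation adaptor Insc (-1.32), Hps1 of lysosome-related organelles (-1.21), Fam213b (-1.14), the cytokine receptor subunit Csf2rb (-1.08) and Dtx4 (-1.01). Smaller falls were found, among others, in Reep5 (-0.88), the ubiquitin ligase scaffold Cul7 (-0.88), Fuz (-0.78), the Wnt co-receptor Lrp5 (-0.75), Scamp5 (-0.75), the lysosomal protein Grn (-0.73), the pore-forming Gsdmd (-0.69), the peptide transporter Tap2 (-0.68), the kinase Prkca (-0.64), Ap1s1 (-0.60), the calcium-binding Sri (-0.60), Ppp1r7 (-0.55), Grina (-0.53) and Imp4 (-0.43). Further rises were those of Atp6v0d2 (1.71), Olfr1033 (1.15), the lysosomal transporter Slc46a3 (0.86), the phospholipase Gpld1 (0.75), the amylase Amy1 (0.74), the lipid transfer protein Vps13a (0.67), Nhlrc2 (0.66), the nuclear import receptor Tnpo1 (0.55), Osbpl8 (0.53), Maco1 (0.52), the asialoglycoprotein receptor subunit Asgr2 (0.50) and Ndfip2 (0.43). Exonic bases are shared with another gene of the table by 16 of the 76, at 10% or more of the gene in Gpld1 (45.5%, Mrs2), Ldhd, Amy1 (32.7%, Rnpc3), Tstd1 and Fuz (14.4%, Ap2a1), so reads of these pairs could be confused, on opposite strands only where the counting did not use strand.

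Stress, inflammation and housekeeping lists had no called member. Of 21 endoplasmic reticulum chaperone genes 19 were positive, with a median of 0.40, among them Hsp90b1 at 0.51 (adjusted p = 0.203), Calr at 0.51 (0.333) and Canx at 0.32 (0.333). Of 43 nuclear genes of the respiratory chain 41 were positive with a median of 0.21, and of 32 proteasome genes 30 were positive with a median of 0.16, whereas 39 of 46 cytosolic ribosomal protein genes were negative with a median of -0.12. None of these passed gene by gene, and genes of 1 complex are not independent of each other. Of 26 acute phase genes 23 were negative, with a median of -0.43. Chow library 2 was the highest chow library for all 26 but Saa3, Saa4, Hpx and Cp. Socs3, for example, was at 9.88, 249, 6.20 and 14.1 CPM in the chow libraries. There Saa1 stood at 27.7, 336, 11.0 and 10.6 CPM after chow, and 17.0 to 37.7 CPM after fast food, and its log2 fold change of -1.96 turned to 0.61 without chow library 2, the library that was also high in neutrophil markers. Hamp, the iron hormone hepcidin, was at -0.36, and 17 of 20 immediate early genes were negative with a median of -0.56, Gadd45b being at -1.20 (adjusted p = 0.532). No gene of the interferon, heat shock, ATF4 or cell cycle lists passed.

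**Figure D4:**
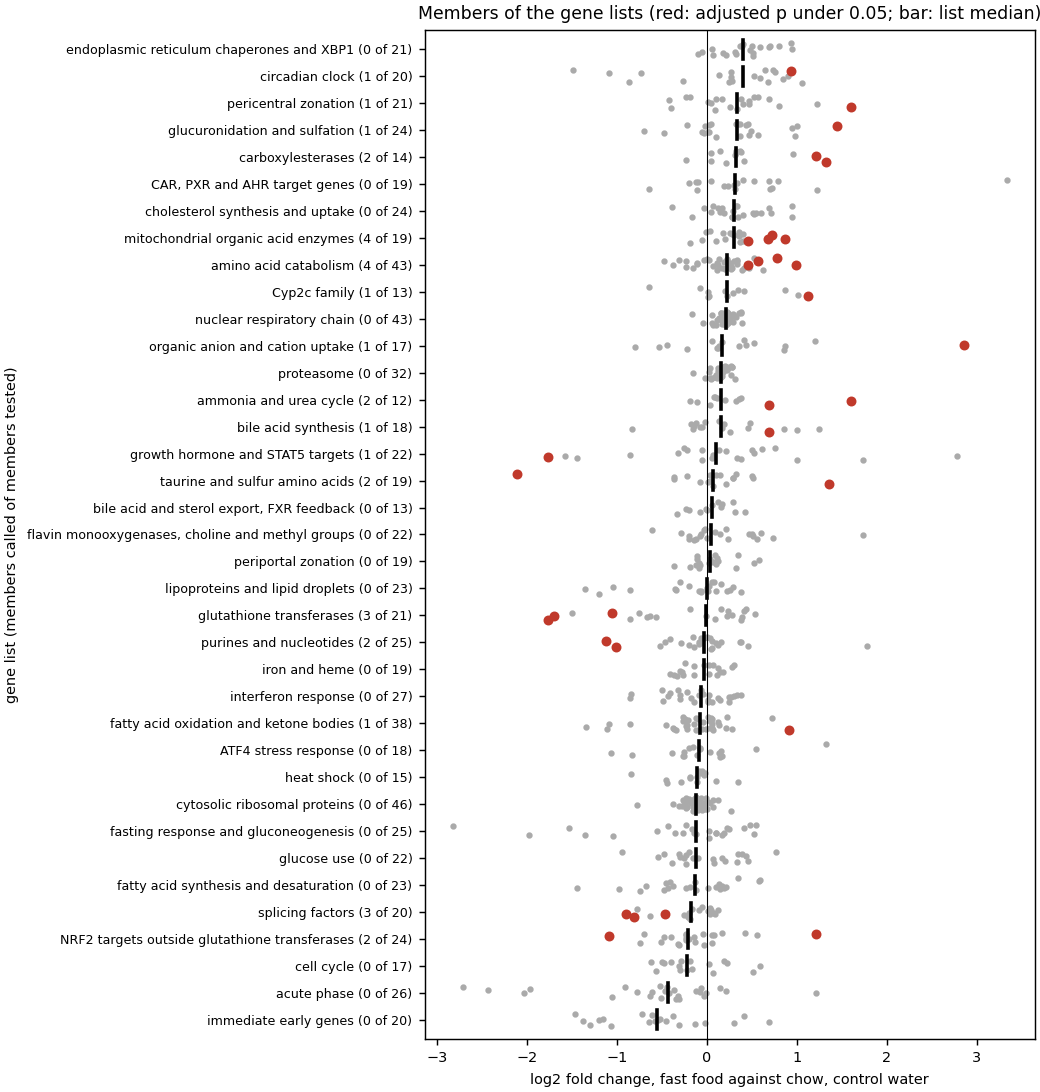
Each row is a gene list (cell type markers left out), with the number of members called of those tested; each point is the log2 fold change of 1 member (fast food against chow, control water), red where the adjusted p is under 0.05, and the black bar is the list median. Medians run from -0.56 (immediate early genes) to 0.40 (endoplasmic reticulum chaperones), and called members stand mostly at the edges of their lists.

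The same meal contrast in mice on antibiotic water called 1800 genes (13.7%), in libraries whose levels do not enter the control-water fold changes, though they share in its estimate of the spread. Of the 76 genes called in control water, 11 were among them, 3 with the same direction and 8 with the opposite. Same in direction were Per2 (0.86 in antibiotic water, adjusted p = 0.00554), Nt5c2 (-0.68, 0.00977) and Cd9 (-1.49, 0.000249). Opposite were, among others, Gpld1 (-0.54, 0.0122), Amy1 (-0.56, 0.0181) and Asgr2 (-0.39, 0.0285), which rose in control water, and Atp2b2 (1.48, 0.0325), Rims2 (1.48, 0.0236), Nt5dc2 (0.82, 0.0477) and Cul7 (0.68, 0.0197), which fell there. The 32 genes that rose had a median log2 fold change of 0.82 in control water and 0.04 in antibiotic water, and 18 were positive there. The 44 that fell had medians of -1.07 and -0.15, and 29 were negative there.

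The difference between the waters was tested as an interaction, which called 519 genes (3.94%), including 33 of the 76, 17 that rose and 16 that fell. The interaction contains the control-water contrast by which these genes were picked, so the count for them is a description. Among the lowest in p were Gpld1 (interaction 1.29 on the log2 scale, adjusted p = 0.00283), Prps2 (-1.53, 0.00348), Rims2 (-3.46, 0.00445), Amy1 (1.30, 0.00445) and Gabbr2 (-1.91, 0.00445). For Slc22a7 the meal effect was 2.85 in control water and 0.21 in antibiotic water (interaction adjusted p = 0.0311), and for Gstp1 -1.76 and -0.10 (0.0322). Csad was at -2.11 and -1.09, with no difference called (0.255), and Ephx1 at -1.09 and -0.19 (0.0762). In antibiotic water, chow libraries 2 and 4 and fast food libraries 1, 2 and 4 had ribosomal RNA-like shares of 2.71 to 8.23%, so the share was split between the meals differently there. With the share as a covariate the interaction called 143 genes.

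**Figure D5:**
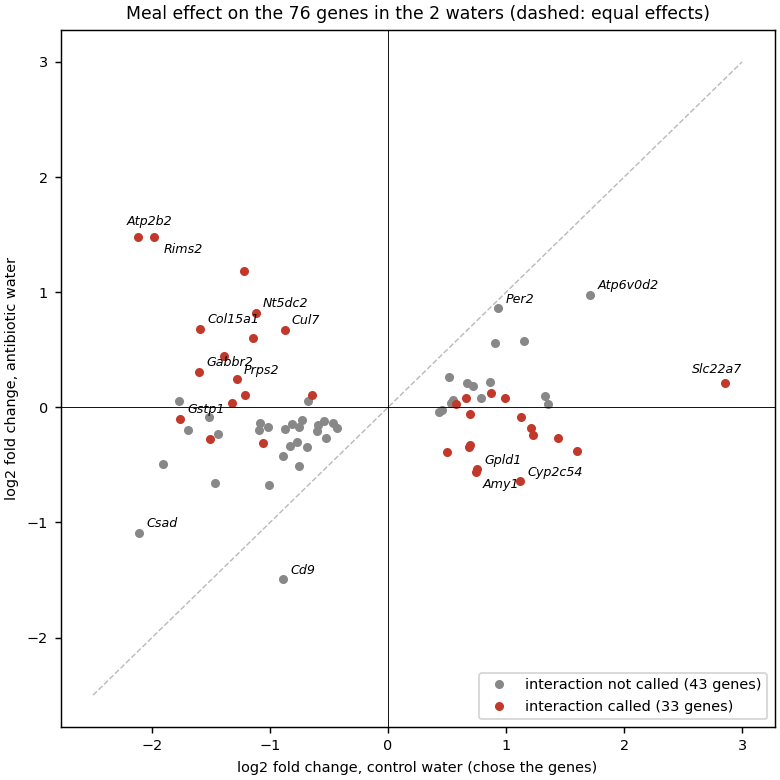
The x axis gives the log2 fold change of the 76 genes in control water, which chose them, and the y axis the same meal contrast in antibiotic water; red, interaction called (33 genes); grey, not called (43 genes); dashed line, equal effects. Per2 lies close to the dashed line, while Atp2b2 and Rims2 lie at the upper left, at -2.12 and -1.98 in control water and above 1 in antibiotic water.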

How the data were processed

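Liver RNA was prepared with a QIAGEN kit and made into Illumina TruSeq mRNA libraries, read as single reads of 50 bases, per the labels' protocols. The authors deposited unnormalized whole-number counts for each gene and library. Tools named in the submitters' processing notes are STAR, HTSeq, cutadapt, FastQC, edgeR and DESeq2 (versions not given), with the build GRCm38.p6. How strand and multiply matching reads were handled, and which annotation release was counted, is not stated there. Of 25006 genes, 24942 matched a symbol in GENCODE M21 (GRCm38), which also gave coordinates.

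From these counts, edgeR 4.0.16 (R 4.3.3) kept 13180 genes with filterByExpr (minimum count 10), scaled libraries with TMM factors, and fitted a robust quasi-likelihood model with 4 group means to all 16 libraries (common biological coefficient of variation 0.222). The contrast of the meals in control water was tested two-sided, with Benjamini-Hochberg adjustment over all genes tested and a threshold of 0.05. SE is the log2 fold change over the square root of F. CPM values printed are on the TMM scale. DESeq2 1.42.0 was an alternative, and the edgeR script was tested on simulated counts. Total counts of 8954378 to 18882589 limit the precision of genes near 1 CPM.

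The comparison and the 48 gene lists (913 genes) were chosen with earlier results of these data known, and 2 further lists after the called genes had been seen. Lists are described by counts and medians, without a test. Genes named are called genes, the called and up to 3 lowest-p members of a list, a panel of liver genes, and neighbours of called transferases. A few genes that this rule selects are not reported here. Libraries of the same number did not pair: deviations from the group means correlated at -0.0734, 0.0314, -0.0869 and -0.157 between the meals. No 2 control-water libraries of the same meal agreed within sampling noise.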

Additional observations from a re-analysis of the deposited data

Results flagged for a closer look

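In 7 of 150 groups of 4 libraries checked (73 called genes, the total counts and the ribosomal RNA-like share, each meal apart), 1 library stood apart from the other 3 by Dixon's criterion, which chance meets in about 1 in 20 groups. After chow, library 2 was low for Gstp1 (571 CPM), library 4 high for Ces3b (269 CPM), and library 3 low for Dtx4 (8.58 CPM) and high for Gsdmd (31.9 CPM) and Fam213b (8.58 CPM). After fast food, library 2 was low for Hps1 (2.81 CPM) and library 1 high for Ppp1r7 (18.1 CPM).

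For 33 of the 76 genes the meal effect differed between the waters by the interaction test in edgeR, of which 32 are given here. Among genes lower after fast food in control water, the log2 effect in control water minus that in antibiotic water was -3.60 for Atp2b2, -3.46 for Rims2, -2.27 for Col15a1, -1.94 for Nt5dc2, -1.91 for Gabbr2, -1.84 for 2010003K11Rik, -1.74 for Fam213b, -1.66 for Gstp1, -1.55 for Cul7, -1.53 for Prps2, -1.36 for Insc, -1.32 for Hps1, -1.24 for Itih5, -0.75 for Gstm1 and -0.75 for Prkca. Among genes higher after fast food, it was 2.65 for Slc22a7, 1.98 for Rhbg, 1.76 for Cyp2c54, 1.71 for Keg1, 1.47 for Omd, 1.39 for Ces1g, 1.30 for Amy1, 1.29 for Gpld1, 1.21 for Cyp2j6, 1.03 for Sugct, 1.02 for Slc27a5, 0.91 for Agxt2, 0.89 for Asgr2, 0.75 for Otc, 0.74 for Ldhd, 0.58 for Nhlrc2 and 0.54 for Prodh2. These genes were picked by the control-water contrast that the interaction contains.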

How the results depend on the processing

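The 76 genes of the control-water comparison became 70 with RLE factors, 71 without the ribosomal RNA-like features, 57 without a filter on low counts, 71 with a mean of at least 10 counts in every group, and 65 with the replicate block (53 of the 76), which pairs libraries that share only a number. The count was 299 with DESeq2 (166 higher, 133 lower, all 76 included), 365 in a fit to the 8 control-water libraries alone (206 higher, 159 lower) and 128 there with the replicate block (74 higher, 54 lower). It was 154 among libraries with a ribosomal RNA-like share under 1% (58 higher, 96 lower), 160 without the 3 libraries highest in acute phase transcripts, 22 with that share as a covariate and 17 with a split at 1% as a term. Leaving out 1 library gave 11 to 42, with fewer samples in each fit. The interaction count of 519 became 143 with the covariate, 262 with the split, 1851 without the 3 libraries, 1117 with DESeq2, and 164 to 1494 without 1 library. The antibiotic-water count of 1800 became 3206 without the 3 libraries and 697 to 3042 without 1 library, where fast food library 2 of that water gave the highest and fast food library 4 the lowest. The cause of these shifts was not tested.

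Of the genes named without a call, some changed sign. Srebf1 (0.01) was at -0.19 with the covariate, -0.18 with the split, -0.066 without the 3 libraries, -0.21 in the low-share libraries, and -0.077 to 0.18 without 1 library. Saa1 (-1.96) was at 0.42, 1.20, 0.65 and 1.19 in those same 4 settings, and ranged from -2.33 to 0.61 without 1 library, the latter without chow library 2. Pck1 (0.10) was at -0.0896 with the covariate and -0.0612 with the split. Cyp3a11 (-0.12) was at 0.0547 in the low-share libraries and -0.44 to 0.0244 without 1 library. Without 1 library, Cyp8b1 (-0.02) reached 0.19, Ppargc1a (0.10) ranged from -0.0421 to 0.23 and Scd1 (-0.68) from -0.95 to 0.0336. The difference in ribosomal RNA-like share (-2.58 percentage points) was -0.713 without chow library 1 and -3.48 without chow library 4, the extremes over its alternatives. Of 998 recomputed list medians, 44 moved by more than 1 SD.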
